A study of Rattus norvegicus with 2 samples.

Results

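Natural killer (NK) cells that carried Xcl1 transcripts and did not have both perforin and granzyme A at high level were examined in leukocytes of the infarcted rat heart. The cells were chosen by raw counts of unique molecular identifiers (UMIs), each of which stands for 1 captured transcript. A member had at least 200 genes, at most 20% mitochondrial UMIs, at least 1 UMI of Ncr1 or Klrb1a and at least 1 UMI of Xcl1. It had no UMI of Cd3e, Cd3g, Fcrl6, Klra22 or Cd79b, at most 2 UMIs over the C1q genes, and not both Prf1 and Gzma at 3 UMIs or more. This rule took 2084 cells out of 29688 that passed the filter, from 29949 barcodes in all. The levels of the genes in the rule are therefore a description and no result.

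The series set wild-type rats with a myocardial infarction (MI) beside wild-type rats that also received an epicardial patch (MI+PUR-hAESC), in which amniotic epithelial stem cells of human origin sit on an antioxidant polyurethane material. Left ventricles, infarct and border zone together, were taken 7 days after surgery, and CD45+ cells were sorted from them, so every cell described had passed a leukocyte gate. Each group is 1 sample by the labels, while how many rats a sample holds, and their strain, sex and age, is not given in the labels. Both samples sit in 1 deposited matrix, whose barcodes carry the suffix 1 or 2. Which suffix is which group is unknown here, so values are given for library 1 and library 2, and a difference between the libraries says nothing of the patch. With 1 library on each side there is no replicate and no test. Intervals are exact 95% Poisson limits for levels and exact 95% Clopper-Pearson limits for shares, and both cover counting error only. In summed counts, fewer cells of a kind and less RNA per cell cannot be told apart.

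NK cells are innate lymphocytes that kill target cells with perforin, which opens the target membrane, and granzymes, the proteases that enter through it. They also secrete cytokines and chemokines, and Xcl1 (lymphotactin) is the chemokine that attracts dendritic cells bearing its receptor Xcr1. NK cells vary from strongly granulated, circulating forms to forms held in tissues that lean toward cytokine and chemokine output.

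Library 1 held 14283 barcodes with 72506643 UMIs and library 2 held 15666 with 82802439. The libraries shared 71 barcode sequences, and none of these was a member in both. Xcl1 NK cells numbered 730 of 14137 passing cells in library 1, or 5.16% (4.805 to 5.54), and 1354 of 15551 in library 2, or 8.71% (8.27 to 9.16). A member held a median of 4489 and 4818 UMIs and 1823.5 and 1847 genes, in library 1 and library 2. Among 5 NK sets that do not overlap (Xcl1 NK cells, Prf1 Gzma high cells, cells with Fcrl6, cells with Klra22, and cells with Nkg7 and Klrd1 but no Xcl1 UMI) the members made up 56.6% (53.9 to 59.4) of 1289 cells and 71.2% (69.1 to 73.2) of 1903 cells. Library 2 thus held the larger share by either denominator, with intervals apart. Both shares follow from where the Xcl1 minimum lies, and Xcl1 UMIs in B cells were also more frequent in library 2. B cells, which should lack Xcl1, had an Xcl1 UMI in 5.15% of cells in library 1 and 8.31% in library 2, at median depths of 3151 and 3123 UMIs. Doublets, droplets with more than a single cell, were called in 6.78% and 13.9% of these B cells. Free transcripts and doublets were not told apart. With a minimum of 2 Xcl1 UMIs the members were 4.10% and 7.68%. The part of free transcripts or doublets in the remaining difference was not tested.

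The marker genes describe the members. Ncr1, Klrb1a and Xcl1 are in the rule, so only Klrb1c and Klri1 bear on the label. Levels are CPM, a gene's UMIs scaled to a total of 1e6 over the summed cells. Ncr1, which encodes the activating receptor NKp46, stood at 275 CPM in library 1 and 218 CPM in library 2. Klrb1a and Klrb1c, lectin-like receptors of the NK gene complex, stood at 1320.3 and 1184 CPM and at 216 and 227 CPM. Klri1, another receptor of that complex, had 411 and 463 CPM. In T cells of the same libraries Ncr1 had 8.23 and 12.1 CPM and Klri1 18.2 and 29.0 CPM. Klrb1c, which the rule did not use, had 29.9 and 25.4 CPM in T cells. T cells are cells with 2 or more UMIs of Cd3e and Cd3g together. Of the T-cell list, Cd3e and Cd3g were at 0 by the rule, and the 16 measured genes summed to 655 and 834 CPM against 1572 and 2426 CPM over all cells. The 11 measured B-cell genes summed to 38.0 and 35.3 CPM, and none reached 20 CPM. Group 2 and 3 innate lymphoid genes had Il17a, Il5 and Il17rb at 0, and 2 of 18 reached 20 CPM, namely Gata3 and Rora, which NK cells also use. The 18 genes summed to 307 and 275 CPM in the members, higher than the 239 and 217 CPM over all cells.

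Transcripts of other leukocytes were present in a minority of members. After the data were seen, members with 10 or more UMIs of S100a8 plus S100a9, of Lyz2 or of Apoe, or 20 or more of RT1-Da, RT1-Db1 and Cd74 together, were marked as carriers. They were 87 cells (11.9%) in library 1 and 112 cells (8.27%) in library 2. Carriers held a median of 7073 and 7589 UMIs, and their Ncr1 level was 113 and 81.2 CPM, against 316 and 241 CPM in the other members. The doublet caller marked 37 and 51 of the carriers but 1 and 3 of the other members. Neutrophil markers summed to 4184 and 4394 CPM over all members and to 239 and 211 CPM without carriers. Macrophage markers summed to 2720.3 and 1838 CPM over all members and to 421 and 291 CPM without carriers. S100a8 and S100a9 are in the first of these lists and Lyz2 and Apoe in the second. The fall of both sums is therefore partly fixed by how carriers were marked. Results that move by leaving these cells out are given both ways.

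**Figure D1:**
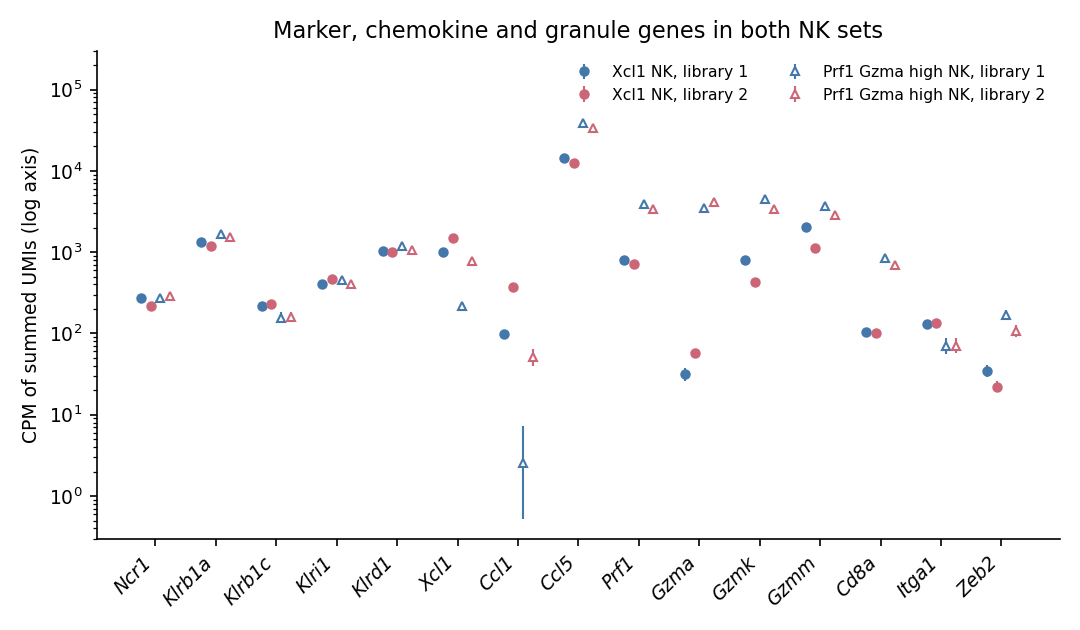
Level of 15 genes in Xcl1 NK cells (filled circles) and in Prf1 Gzma high NK cells (open triangles), as CPM of summed UMIs on a log axis, in library 1 (blue) and library 2 (red); bars are exact 95% Poisson intervals. Receptor genes lie close together in both sets, while Gzma, Prf1, Gzmk, Cd8a, Ccl5 and Zeb2 are lower in Xcl1 NK cells and Ccl1 is higher.

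The Xcl1 level varied widely between cells. In library 1 a member had a median of 3 Xcl1 UMIs and at most 56, and in library 2 a median of 6 and at most 59. Members with 1 UMI, just inside the rule, were 150 cells (20.5%) in library 1 and 160 cells (11.8%) in library 2, while members with 10 or more were 13.7% and 30.3%. Summed over members, Xcl1 stood at 993 CPM (961 to 1026) and 1507 CPM (1479 to 1536). Members held 46.9% and 44.4% of all Xcl1 UMIs of their library. Cells with Fcrl6 had 1277 and 1700.3 CPM, Prf1 Gzma high cells 217 and 774 CPM, and T cells 116 and 217 CPM.

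**Figure D2:**
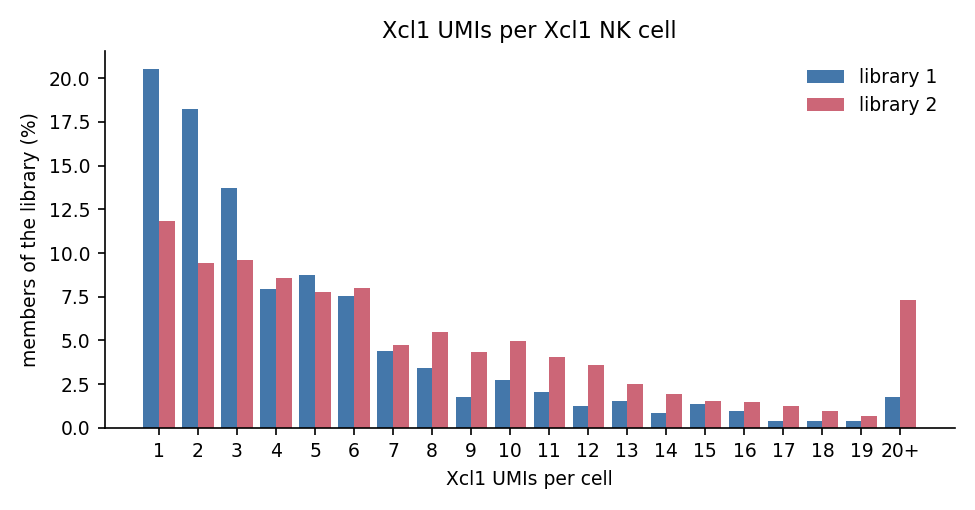
Share of the members of each library (%, vertical axis) by their number of Xcl1 UMIs (horizontal axis, with 20 or more as the last class), library 1 in blue and library 2 in red. Library 1 has more cells at 1 UMI (20.5% against 11.8%), and library 2 more at 20 or more (7.31% against 1.78%).

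The words low Prf1 hold only beside the strongly granulated cells. Prf1, which encodes perforin, was at 0 in 97 members (13.3%) of library 1 and 232 (17.1%) of library 2, and at 3 UMIs or more in 57.8% and 52.7%. The members had a median of 3 Prf1 UMIs in both libraries, against 19 and 16 in the Prf1 Gzma high cells. Gzma, granzyme A, had no UMI in 89.6% and 84.7% of the members. Both sets were cut on Gzma, so its contrast between them is largely fixed by the rule. Cells with Prf1 at 3 or more and Gzma at 2, just inside the rule, were 10 and 32, and high cells with Gzma at 3, just outside, were 13 of 232 and 17 of 231. Few cells therefore lay at this Gzma border. Members with Gzma at 3 or more, which the rule kept because their Prf1 was under 3, were 5 and 28. B cells, which should lack Gzma, had a UMI of it in 4.68% and 5.84% of cells.

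Against the Prf1 Gzma high cells, of which there were 232 and 231, 46 of 5447 genes with 20 CPM or more were past 2-fold higher in Xcl1 NK cells in both libraries (0.845%) and 67 past 2-fold lower (1.23%). With a mean of per-cell CPM the first count was 81, and with carriers left out of both sets 80. Both sets were cut from the same counts, so these are descriptions. By the same limits on symbol and level, the 12 lowest were Gzma, Gzmbl3, Focad, Cd8a, Lag3, Gzmk, Camk2n1, Lmo7, Tcte1, Prf1, Spint1 and Fcgr3a. Gzmk, the granzyme K gene, stood at 801 and 426 CPM in Xcl1 NK cells and at 4512 and 3370.5 CPM in the high cells. Gzmbl3, a granzyme B-like gene whose reads a related copy could share, had 0.271 and 1.11 CPM against 174 and 288 CPM. Of the 16 measured cytotoxic granule genes, 5 were past 2-fold lower, all of them Prf1 or granzymes, and none past 2-fold higher. Prf1 and Gzma, which the rule used to part the sets, are among these 5. Ccl5, a chemokine that NK and T cells store and release, had 14224 and 12372 CPM against 38542 and 33350.0 CPM.

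Receptors and regulators of mature, circulating NK cells stood on the same side as the granule genes. Of 14 such genes measured, 8 were past 2-fold lower in Xcl1 NK cells and none past 2-fold higher, at a median log2 ratio of -1.56 in library 1 and -1.41 in library 2, beside 0.03 and 0.02 over all genes. Prf1 and Gzma, which the rule used, are 2 of these 8. Klrg1, an inhibitory receptor of late effector cells, had 115 and 43.3 CPM against 364 and 254 CPM. Zeb2, a transcription factor of NK maturation, had 34.7 and 22.2 CPM against 170.4 and 107 CPM, and S1pr5, a receptor for exit from tissue, 4.88 and 8.18 CPM against 45.3 and 40.4 CPM. Prdm1, which encodes Blimp-1, had 37.2 and 41.0 CPM against 115 and 114 CPM. Cd8a, which NK cells of the rat express as a surface chain, had 104 and 102 CPM against 857 and 699 CPM. In each of these genes both libraries of Xcl1 NK cells lay below both libraries of the high cells.

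NK receptors were mixed between the sets. Klrd1, the CD94 partner of NKG2 receptors, had 1036 and 1003 CPM against 1188 and 1059.8 CPM. Ncr1 had 269 and 286 CPM in the high cells, at log2 ratios of 0.03 and -0.38 for the members over them. Of 17 measured lectin-like receptors, 10 were lower in Xcl1 NK cells in both libraries, beside 1584 of 5447 genes in all. Of these 10 receptors, 5 were past 2-fold lower, Klrg1, Klri2, Ly49s5, Ly49s6 and Ly49s7. The list medians were -0.32 and -0.30, close to those of the granule list (-0.32 and -0.34). Ly49 genes are near copies of each other, so counts of single members are uncertain. Tbx21 and Eomes, the T-box factors that direct NK development, had 101 and 139.7 CPM and 20.6 and 17.6 CPM, against 140.2 and 159 CPM and 13.4 and 24.4 CPM.

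Among genes with a proper symbol, leaving out unnamed loci, the 12 highest in Xcl1 NK cells were Ccl1, Cck, Sema6d, Hivep3, Mdfic, Pmepa1, Tnfsf10, Rbpj, Cd93, Gpr183, Frmd4b and Ncr3. Ccl1, a chemokine for cells with the receptor Ccr8, stood at 99.8 and 374 CPM against 2.52 and 51.0 CPM in the high cells. It was not particular to the members. A Ccl1 UMI was found in 8.36% and 16.1% of them, but in 13.0% and 34.9% of the cells with Fcrl6. Tnfsf10, the death ligand TRAIL carried by tissue-held group 1 innate lymphocytes, had 61.9 and 110.1 CPM against 10.1 and 36.6 CPM in the high cells. Rbpj, the DNA-binding partner of Notch, had 126 and 201 CPM against 15.9 and 72.4 CPM. Of 13 measured genes of tissue residency, 10 were higher in Xcl1 NK cells in both libraries, 2 of them past 2-fold (Tnfsf10 and Ahr), and 1, Prdm1, was past 2-fold lower, at medians of 0.66 and 0.73. Over all 5447 genes, 2050 were higher in Xcl1 NK cells in both libraries. Itga1, the alpha chain of the collagen receptor CD49a, had 132 and 135 CPM against 70.5 and 70.9 CPM. Of 11 TGF-beta response genes, 9 were higher in both libraries and 2 of them past 2-fold, at medians of 0.87 and 0.59, with Smad7, an inhibitor of the pathway, at 467 and 357 CPM against 207 and 158 CPM and Pmepa1, another such inhibitor, at 184 and 108 CPM against 64.6 and 23.6 CPM. Cells with Nkg7 and Klrd1 but no Xcl1 UMI, a comparison added after the data were seen (164 and 101 cells), had Smad7 at 455 and 299 CPM and Pmepa1 at 323 and 219 CPM, so Pmepa1 was higher than in the members and Smad7 somewhat lower. Tnfsf10 in those cells stood at 16.01 and 21.9 CPM.

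Between the libraries, 5680 genes had 20 CPM or more in Xcl1 NK cells, and 94 were past 1.5-fold higher in library 2 (1.65%) and 107 past 1.5-fold higher in library 1 (1.88%). With 1 CPM added in place of 10 these counts were 150 and 183. Ratios are log2 of library 2 over library 1 after adding 10 CPM to each, which understates the change of low genes, and their median over all genes was -0.03. Among genes with a proper symbol, leaving out unnamed loci, the 12 highest were Fam111a, Sept5, Pi16, Ccl1, Stfa2, Retnlg, Rasgef1b, Fcnb, Cd84, Cd93, Lgals1 and Irf7. The 12 lowest were Spp1, Sparc, Cxcl2, Fn1, Pf4, Fabp4, Klrg1, Ctsl, Vcan, Cd14, Cd63 and Ier3. Most of the second list are macrophage or monocyte transcripts. Without carriers Spp1, osteopontin, stood at 18.7 and 8.59 CPM in place of 149 and 24.4 CPM, and Fabp4, a lipid carrier, at 4.75 and 5.19 CPM in place of 169.5 and 65.7 CPM. The same held for the neutrophil genes Stfa2, Retnlg and Fcnb in the first list, at 1.78, 1.78 and 4.22 CPM in library 2 without carriers. These levels thus rested on the carriers.

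**Figure D3:**
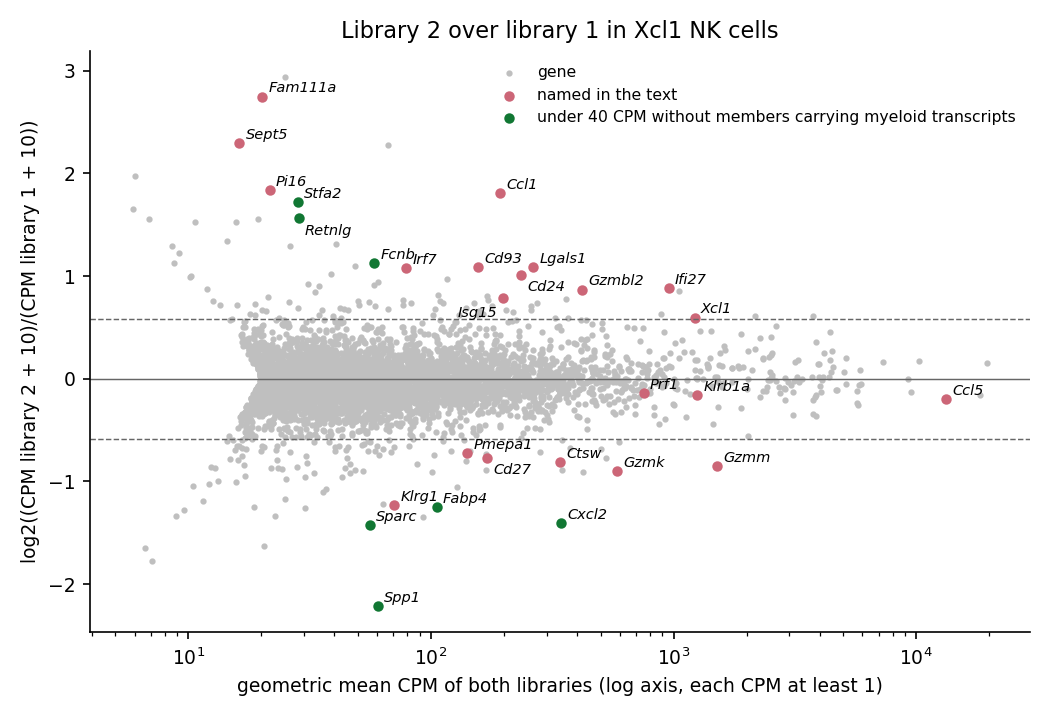
Each point is 1 of 5680 genes in Xcl1 NK cells, with its geometric mean CPM over both libraries (horizontal log axis) and its log2 ratio of library 2 over library 1 (vertical axis); dashed lines mark 1.5-fold. Red points are genes described in the text, and green points are genes under 40 CPM in both libraries once carriers are left out. Ccl1 (1.81) stands highest among genes with 50 CPM or more in both libraries, and Gzmk (-0.90) and Gzmm (-0.85) lie low.

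Fam111a, a nuclear protease gene, had the largest ratio of the named genes, with 4.61 CPM (2.69 to 7.38) against 88.2 CPM (81.4 to 95.3) in library 2. The same held over all cells, where Fam111a stood at 5.01 and 88.5 CPM. Cd93, a transmembrane glycoprotein, had 105 CPM (94.5 to 116) and 233 CPM (222 to 245), against 27.8 and 54.8 CPM over all cells. Lgals1, a galactoside-binding lectin, had 179 and 390.1 CPM, and Cd24, an adhesion molecule, 163 and 340.2 CPM. Without carriers Cd93, Lgals1 and Cd24 stood at 111 and 250.2, 152 and 383 and 186 and 369.9 CPM. Their levels were thus higher in library 2 with or without those cells.

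Granule proteases went in both directions between the libraries. Gzmm, granzyme M, had 2039 CPM (1994 to 2086) in library 1 but 1124 CPM (1099 to 1148) in the other. Gzmk had 801 CPM (772 to 830.5) and 426 CPM (411 to 441), and Ctsw, the lymphocyte cathepsin W, 454 CPM (433 to 476) and 254 CPM (242 to 266). These 3 were past 1.5-fold higher in library 1, as was Cd27, a costimulatory receptor of less mature NK cells, with 226 and 129 CPM. Gzmbl2, a granzyme B-like gene, went the other way with 308 and 570.3 CPM, and Gzma, which the rule limits, had 31.5 and 56.7 CPM. Prf1 differed little, with 790.5 and 718 CPM. The list median over 15 measured genes was -0.03, the value over all genes. In T cells Gzmm stood at 638 and 655 CPM, and over all cells at 406 and 477 CPM. T cells thus did not share its lower level in library 2, but other NK cells went the way of the members. Gzmm was at 0 in 1.72% and 12.1% of the Prf1 Gzma high cells and in 44.9% and 80.1% of the cells with Fcrl6. A Gzmk UMI was found in 98.7% and 93.1% of the high cells.

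Chemokine ligands were unequal as well. Ccl1 had 99.8 CPM (89.9 to 111) in library 1 but 374 CPM (360.4 to 389) in library 2. A few cells made most of it: the 10 highest members held 61.7% and 62.2% of its UMIs, and 1 cell of library 2 held 1033 of 2701. Without the highest cell of each library Ccl1 stood at 88.6 and 232 CPM. Thinned to 1500 UMIs per cell, 5.32% and 9.83% of members had a Ccl1 UMI, against 0.119% and 1.19% of B cells. Ccl4 and Ccl3, inflammatory chemokines that activated NK cells release, had 1982 and 2607 CPM and 322 and 416 CPM, and Ccl5 14224 and 12372 CPM. The log2 ratios of Ccl3 and Ccl4 were 0.36 and 0.39, under 1.5-fold. The median over 8 measured ligands was 0.08, and it was 0.36 when carriers were left out and -0.010 at 2 or more Xcl1 UMIs, so its sign depended on the setting. Free transcripts or doublets are a limit for the shares of this family. B cells had a Ccl5 UMI in 13.5% and 22.9% of thinned cells, against 91.7% and 91.97% of the members.

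Type I interferon response genes had the highest median of the lists with more than 1 measured gene; the death receptor ligand list had Tnfsf10 alone, at 0.74. Of 24 measured genes 21 were higher in library 2, beside 2427 of 5680 genes in all. Past 1.5-fold higher in library 2 were 8 of them, beside 1.65% of all genes, and none was past 1.5-fold in library 1. The list median was 0.52, and 0.49 without carriers. Ifi27, an interferon-induced membrane protein, had 702 CPM (675 to 729) and 1303 CPM (1276 to 1329). Mx1, an antiviral GTPase, had 114 and 197 CPM, and Irf7, the factor that amplifies interferon transcription, 51.8 and 120.2 CPM. Isg15, a ubiquitin-like protein, had 149 CPM (137 to 162) and 265 CPM (253 to 277), and 52.3 and 141 CPM without carriers. Bst2 (tetherin) went the other way, with 763 and 636 CPM. Over all cells Isg15 stood at 388 and 615 CPM and Ifi27 at 850.0 and 1456 CPM, also higher in library 2. Of 18 measured interferon gamma and class I genes 15 were higher in library 2, a direction that 2427 of all 5680 genes had. None of the 15 was past 1.5-fold, 1 gene was past 1.5-fold in library 1, and the median was 0.17.

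**Figure D4:**
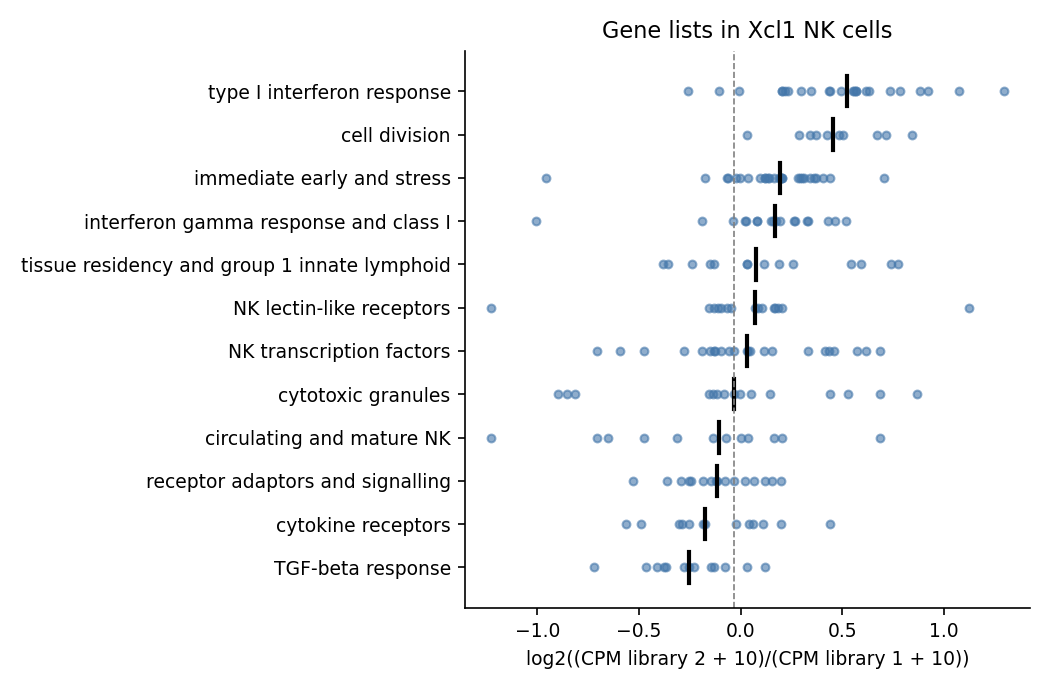
Log2 ratio of library 2 over library 1 (horizontal axis) for the genes of 12 lists in Xcl1 NK cells; each circle is a gene with 20 CPM or more, black bars are list medians and the dashed line is the median over all genes (-0.03). The type I interferon (0.52) and cell division (0.46) medians lie farthest right and TGF-beta response (-0.25) farthest left.

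Of 28 immediate early and stress genes, which tissue digestion can raise, 22 were higher in library 2, beside 2427 of 5680 genes in all. In each direction 1 was past 1.5-fold, and the median was 0.19. Nr4a1, a nuclear receptor induced by antigen-receptor and stress signals, had 138 and 231 CPM. Fos, Junb and Jund, subunits of AP-1, had 1315 and 1513, 3058 and 3481, and 1765 and 1919.7 CPM. Cd69, which holds activated lymphocytes in tissue, had 262 and 400.4 CPM. Its share among thinned members was 25.4% and 39.2%, but B cells, which express the gene, had 45.1% and 39.2%. Ifng, the signature cytokine of NK cells, had 41.0 CPM (34.7 to 48.0) and 75.8 CPM (69.6 to 82.5), and 5.18% and 9.23% of thinned members had a UMI of it.

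TGF-beta response genes lay lower in library 2 in 11 of 13 cases, 1 past 1.5-fold, at a median of -0.25. That 1 is Pmepa1, with 184 and 108 CPM. Smad7 had 467 and 357 CPM and Skil 227 and 162 CPM, both under 1.5-fold. T cells had Pmepa1 at 194 and 109 CPM, which is the same direction. Cytokine receptors were lower in library 2 in 8 of 13 cases, none past 1.5-fold, a share near that of all genes (3253 of 5680), with Il18rap, a chain of the interleukin-18 receptor, at 139 and 90.5 CPM and Ifngr1 at 521 and 368 CPM. Among 23 measured transcription factors 2 were past 1.5-fold in each direction. Over all 5680 genes, 1.65% were past 1.5-fold higher in library 2 and 1.88% in library 1. Gata3 and Myc were higher in library 2, with 80.3 and 129 CPM and 32.6 and 58.4 CPM. Rora and Tcf7 were higher in library 1, with 171 and 110.2 CPM and 54.5 and 29.5 CPM. Id2, which group 1 innate lymphocytes depend on, had 182 and 275 CPM.

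Gzmm divided the members, and this division was made after its values were seen. It was at 0 in 153 members (20.96%, 18.1 to 24.1) of library 1 and 620 (45.8%, 43.1 to 48.5) of library 2, while 46.8% and 26.9% had 10 UMIs or more. Cells at 1 to 4 UMIs were only 19.6% and 16.2%. Depth was alike, with medians of 4410 and 4476.5 UMIs in cells without Gzmm and 4520 and 5021.5 in cells with it. Thinned to 1500 UMIs, 71.0% and 45.3% of members had a Gzmm UMI, against 7.16% and 7.11% of B cells. In the Prf1 Gzma high cells Gzmm was at 0 in 1.72% and 12.1%, and in cells with Fcrl6 in 44.9% and 80.1%. All 3 NK sets thus had more cells without Gzmm in library 2.

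Carriers were left out for the comparison of these cells, which left 121 cells without Gzmm of 643 and 559 of 1242. Of 5316 genes with 20 CPM or more on either side in both libraries, 19 were past 2-fold higher without Gzmm in both libraries and 19 past 2-fold lower (0.357% each). Several NK receptors were at like levels on both sides, but not all. Klrd1 had 1171 and 1084 CPM with Gzmm and 1152 and 1123 CPM without, and Klri1 464 and 517 CPM with and 468 and 496 CPM without. Klrb1a had 1522 and 1336 CPM with and 1387 and 1231 CPM without. Ncr1 was somewhat lower in the cells without Gzmm, at 325 and 269 CPM with and 277 and 203 CPM without. The rule asked for Klrb1a or Ncr1 on either side, so the likeness of these genes is partly fixed by it. Ncr3, another NK receptor, was higher without Gzmm, at 57.2 and 40.5 CPM with and 97.9 and 117 CPM without.

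Several other transcripts of the granulated form were lower in cells without Gzmm, but not all. Gzmk stood at 1055 and 725 CPM with Gzmm and 230.3 and 103 CPM without. Cd8a had 129 and 157 CPM with and 34.5 and 29.7 CPM without. Klrg1 had 149 and 66.1 CPM with and 56.2 and 24.1 CPM without. Prf1 differed less, at 961 and 935 CPM with and 676 and 595 CPM without. Ctsw differed far more in library 2 (467 and 35.8 CPM) than in library 1 (567 and 299 CPM). Gzmbl2 was not lower, at 327 and 539 CPM with and 359 and 705 CPM without.

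Other genes were higher in the cells without Gzmm. Ccl1 had 70.2 and 75.2 CPM with Gzmm and 272 and 873 CPM without. Leaving out the highest cell of each side, chosen after the data were seen, gave 52.8 and 69.1 CPM with Gzmm and 206 and 486 CPM without, so 1 cell held much of the level in library 2. Adam19, a membrane metalloprotease, had 54.3 and 62.1 CPM with and 181 and 265 CPM without, and Cd63, a granule membrane protein, 61.8 and 18.5 CPM with and 210.4 and 96.0 CPM without. Tnfsf10 had 55.6 and 74.1 CPM with and 136 and 183 CPM without, and Ifng 37.6 and 45.02 CPM with and 90.7 and 129 CPM without. Il4, a cytokine not usual for NK cells and named after its values were seen, had 1.67 and 7.69 CPM with and 14.5 and 60.6 CPM without. Xcl1 itself, a gene of the rule, had 1045 and 1392 CPM with and 1407 and 1973 CPM without.

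**Figure D5:**
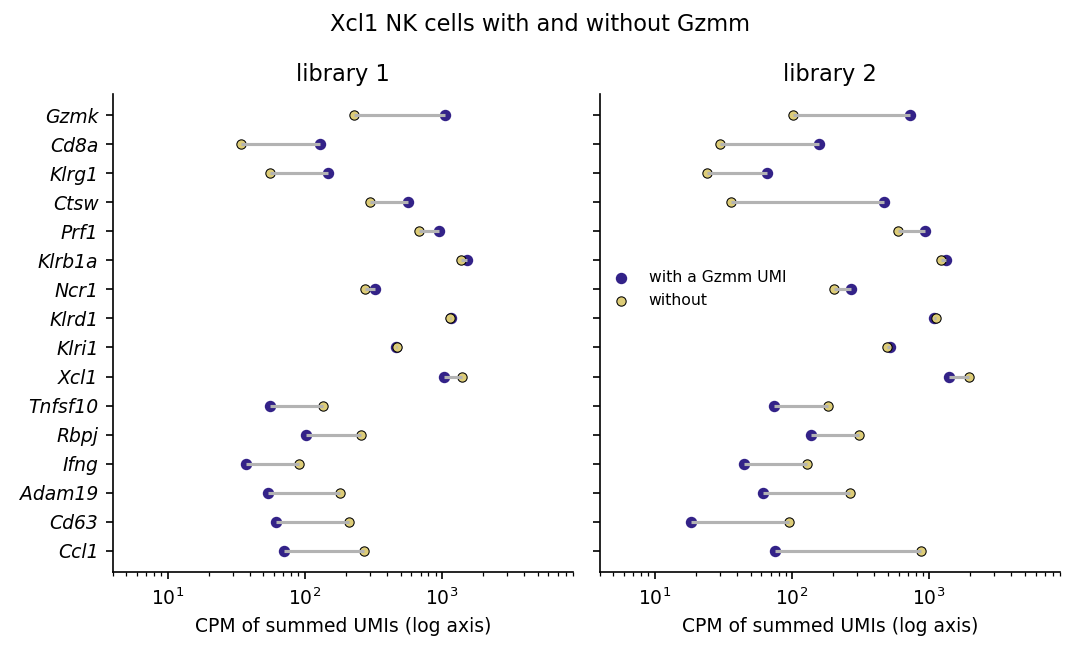
Level of 16 genes in Xcl1 NK cells with a Gzmm UMI (dark points) and without (light points), as CPM of summed UMIs on a log axis, in library 1 (left) and library 2 (right), carriers left out. The receptor genes Klrd1 and Klri1 lie close together, Gzmk, Cd8a, Klrg1 and Ctsw are lower without Gzmm, and Ccl1, Cd63, Adam19, Ifng, Rbpj and Tnfsf10 are higher.

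The libraries were also compared within each side of the division. Among cells with Gzmm, which were chosen by it, its level was 2844 CPM in library 1 and 2150.1 CPM in library 2, a log2 ratio of -0.40 beside -0.85 over all members. Gzmk had a ratio of -0.54 among cells with Gzmm and -1.09 among those without, in place of -0.90 over all members. The interferon list median was 0.57 among cells with Gzmm and 0.36 among those without, so it was positive in both. The TGF-beta list had 0 of 11 and 3 of 12 genes higher in library 2, beside 2278 of 5579 and 2557 of 5723 genes in all.

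The 250 bases upstream of 4 of these genes are shown. Gzmm made the division itself, Gzmk was lower in cells without Gzmm, and Xcl1 and Ccl1 were higher there. Xcl1, a gene of the rule, had log2 ratios of only 0.43 and 0.50 for cells without Gzmm over cells with it, under 1.5-fold. They are RefSeq sequences of build GRCr8, read 5′ to 3′ along the gene and ending just before its start site. Capitals mark matches, on either strand, to the T-box motif TCACAC or the Runx motif TGTGGT; the AP-1 motif TGANTCA was also searched and had no match in these 4, and no 2 matches overlap.
Gzmm, chr7:10667257-10667506, minus strand: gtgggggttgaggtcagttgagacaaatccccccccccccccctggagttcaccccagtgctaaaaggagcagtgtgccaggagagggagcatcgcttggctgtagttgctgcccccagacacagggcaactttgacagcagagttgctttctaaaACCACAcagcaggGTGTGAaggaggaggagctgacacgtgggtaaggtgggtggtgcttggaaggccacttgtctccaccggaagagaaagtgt
Gzmk, chr2:46582016-46582265, minus strand: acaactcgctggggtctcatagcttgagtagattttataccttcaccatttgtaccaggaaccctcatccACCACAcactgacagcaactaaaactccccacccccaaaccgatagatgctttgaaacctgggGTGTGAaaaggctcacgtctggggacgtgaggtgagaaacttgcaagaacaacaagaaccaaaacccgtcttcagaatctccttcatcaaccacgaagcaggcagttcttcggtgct
Xcl1, chr13:79785441-79785690, minus strand: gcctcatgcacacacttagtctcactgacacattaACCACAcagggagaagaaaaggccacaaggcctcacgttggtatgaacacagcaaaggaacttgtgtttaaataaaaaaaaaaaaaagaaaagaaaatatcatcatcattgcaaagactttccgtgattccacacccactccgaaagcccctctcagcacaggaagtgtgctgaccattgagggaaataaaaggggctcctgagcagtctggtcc
Ccl1, chr10:67628741-67628990, minus strand: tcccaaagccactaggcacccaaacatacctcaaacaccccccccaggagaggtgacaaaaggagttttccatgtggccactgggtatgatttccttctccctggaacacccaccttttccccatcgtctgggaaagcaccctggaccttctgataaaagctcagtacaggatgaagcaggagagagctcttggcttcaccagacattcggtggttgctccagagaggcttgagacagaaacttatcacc

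The Gzmm and Gzmk windows each hold both motifs, the Xcl1 window the Runx motif alone, and the Ccl1 window neither. Of 33469 rat promoter windows of the same length, 11.6% hold the T-box motif, 14.5% the Runx motif and 1.94% both. Among the genes of the rule, Prf1 and Gzma had a Runx match and no T-box match. A match is a description of the letters and shows no binding.

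A smaller group of members carried Sept5, a septin gene, and it was nearly confined to library 2. A Sept5 UMI was found in 9 of 730 members (1.23%, 0.565 to 2.33) of library 1 and 147 of 1354 (10.9%, 9.25 to 12.6) of library 2. B cells had 0.351% and 1.69%, and neutrophils 2.70% and 4.10%. Carriers were 4 of the 9 members in library 1 and 16 of the 147 in library 2. Sept5 and Pi16, a peptidase inhibitor gene, occurred together in 0 and 81 members, where 0 of 730 allows a share of up to 0.504% by the exact limit. Of the 81, 14 were carriers. Neutrophils had a Pi16 UMI in 11.4% and 22.7% of cells, against 2.60% and 11.3% of the members. The levels below include carriers. In library 2, members with Sept5 had Pi16 at 287 CPM and Rasl10a, a small GTPase gene, at 229 CPM, against 19.9 and 15.5 CPM in the other members. They had Gzmm at 67.1 against 1288 CPM, Ctsw at 10.3 against 292 CPM, Gzmk at 34.1 against 486 CPM and Prf1 at 217 against 795 CPM. Klrb1a was alike at 1124 and 1194 CPM, and Ncr1 lower at 112 against 234 CPM. Mki67, a marker of cycling cells, had 311 against 106 CPM, Cd28, a costimulatory receptor, 196 against 48.7 CPM and Ifng 184 against 59.1 CPM. Cd3d had 12.4 and 6.41 CPM. The cells with Fcrl6, which the rule sets apart, had a Sept5 UMI in 11.6% and 44.0%, so Sept5 was more frequent there in both libraries. These groups were formed after their values were seen.

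Few members were dividing. Thinned to 1500 UMIs, 22 of 714 members (3.08%, 1.94 to 4.63) in library 1 and 59 of 1333 (4.43%, 3.39 to 5.67) in library 2 had 2 or more UMIs over 14 cell division genes. The intervals overlap, and whether the shares differ was not tested. Neutrophils, which do not divide, had 1.68% and 1.82%, and the Prf1 Gzma high cells 6.47% and 7.36%. Cells with Fcrl6 had 3.62% and 3.70%. B cells had 0.835% (0.336 to 1.71) and 3.01% (2.265 to 3.92), so their share was also higher in library 2. Not thinned, the members had 7.53% and 12.2%. In summed counts 10 of 10 measured division genes were higher in library 2, 3 past 1.5-fold, at a median of 0.46, beside 2427 of 5680 genes in all. Mki67 stood at 91.4 CPM (81.9 to 101.7) and 134 CPM (125 to 142) and Stmn1, a tubulin regulator, at 159.8 and 261 CPM.

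The genes most like Xcl1 across thinned members were Jund, Fosb, Ccl4, Cd24 and Rgcc, with Pearson correlations of 0.25, 0.20, 0.24, 0.18 and 0.19 over 714 cells in library 1 and 0.21, 0.20, 0.20, 0.19 and 0.17 over 1333 cells in library 2. These are weak values in sparse counts from cells that share a library and a selection on Xcl1, and they serve as a description. Prf1 had 0.06 and 0.01. The receptor of Xcl1, Xcr1, was found in 80 of 14137 cells (0.566%, 0.449 to 0.704) in library 1 and 43 of 15551 (0.277%, 0.2002 to 0.372) in library 2, and in 0 and 3 members. The library with more Xcl1 NK cells thus had the smaller share of cells with the receptor.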

How the data were processed

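Sorted CD45+ heart cells were measured with 10x Genomics 3′ libraries. The deposited matrix holds raw UMI counts for each gene and barcode, and the file headers name Cell Ranger 4.0.0 as its source. The build behind it is not given in the sources used here. Counts of a symbol on several lines were added up (26976 symbols). A deposited table of 33756 barcodes shares 111 with the matrix and was not used. The members and gene lists were chosen with earlier results of these data known. Named genes are those of the rule, the 12 highest and 12 lowest ratios of either comparison among genes with a proper symbol (no unnamed loci, mitochondrial, ribosomal protein, haemoglobin or receptor segment genes) whose higher side had at least 50 UMIs and CPM, and the most abundant members of each of 29 lists; others are said to be chosen after their values were seen, or serve as comparison.

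UMIs were summed over the cells of a library and scaled to 1e6 (CPM). Intervals are exact and cover counting error only. Doublets were called with Scrublet in scanpy 1.11.5 and kept, since the rule names no caller; they are 38 and 54 of the members. Cells under 1500 UMIs (16 and 21 members) were left out of thinned shares. The calculations were tested on simulated counts. Alternatives were doublets left out, other limits of the rule, per-cell means, TMM scaling with edgeR 4.0.16, other added CPM, other minimum CPM and other thinning. Leaving out carriers or Sept5 cells was added after the data were seen. With 1 library on each side no p-value was computed.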

Additional observations from a re-analysis of the deposited data

How the results depend on the processing

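Over all settings, 100 of 128 summary values moved by less than their counting interval or 1.5 times, 26 moved further and 2 changed sign. For single genes, 964 of 1188 values were within their counting interval, 222 moved further, 56 of them among 99 when Sept5 cells were left out, and 1185 kept their sign. The share of Xcl1 NK cells in library 1 and library 2 was 4.10% and 7.68% with at least 2 Xcl1 UMIs, 4.59% and 7.81% with Cd3d and Cd5 also at 0, 4.70% and 7.46% with no C1q UMI and 4.55% and 7.99% without carriers, and 7.76% in library 2 without Sept5 cells. With 1 CPM added, 150 genes were past 1.5-fold higher in library 2 and 183 in library 1, and at a minimum of 50 CPM the count for library 1 was 60. Genes past 2-fold higher than in Prf1 Gzma high cells numbered 81 with per-cell means, 86 with 1 CPM added, 29 at a minimum of 50 CPM and 80 without carriers, and genes past 2-fold lower 44 at a minimum of 50 CPM. The interferon median was 0.39 at 2 or more Xcl1 UMIs. The chemokine ligand median was -0.010 at 2 or more Xcl1 UMIs, -0.081 with no minimum, 0.14 with Cd3d and Cd5 at 0, 0.22 with per-cell means, 0.39 at a minimum of 50 CPM, 0.36 without carriers and 0.44 without Sept5 cells. Without carriers the ratios of Sparc and Fabp4 changed sign to 0.23 and 0.042. Dividing cells were 1.93% of library 1 when thinned to 1000 UMIs, and 7.53% and 12.2% when not thinned. The causes of these shifts were not tested. No paired analysis was possible because each group is 1 sample. With 1 library on each side, the spread between animals is unknown.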
